A study of Homo sapiens with 6 samples.

Results

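The genes described here are components of the complement system, regulators of complement and acute phase genes, measured by RNA sequencing in PC3, a human prostate cancer line long kept in culture. The set was a named list of 9 genes: C3, CFB, C1R, C1S, CD46, CD55, CD59, LCN2 and SAA1. Rows of the deposited table were taken by gene symbol, which gave 7 of the 9 among 12227 listed genes; C1R and C1S were not analysed here. Every listed gene had 150 or more estimated reads in its highest library, and the 7 genes had therefore passed that limit.

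The study compared 3 libraries of PC3 cells with control short hairpin RNA (control sh, genotype given as WT) with 3 libraries of PC3 cells with short hairpin RNA against VprBP (VprBP sh, genotype given as VprBP knockdown). VprBP is the protein product of DCAF1. All cells were grown in DMEM with 10% fetal bovine serum at 37 degrees and 5% CO2, and both groups carried a hairpin. The labels do not say whether sh1, sh2 and sh3 are separate hairpins, cultures or repeat libraries, so the p-values cover nothing beyond the spread among these libraries, which may be technical. All samples come from a single cell line.

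Complement is a cascade of plasma proteases and their substrates that marks surfaces for uptake and can end in a membrane pore. Its 3 entry routes, classical, lectin and alternative, meet at C3, and host cells carry membrane proteins that stop the cascade on their own surface. Acute phase proteins are secreted mainly by the liver in inflammation under the control of IL-6, IL-1, STAT, C/EBP and NF-kB factors. Epithelial cells, including cancer cells, also make several complement and acute phase proteins.

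Estimated depth over listed genes was 22981877 to 32293127 reads for control and 23029460 to 39633835 reads for knockdown libraries. DCAF1, the targeted gene, had deposited values of 79.4, 78.5 and 78.7 in control libraries and 38.5, 41.1 and 40.2 in knockdown libraries. This left 50.6% of the control level (log2 fold change -0.97, SE 0.05, limma adjusted p = 3.56e-11; exact permutation p = 0.1, two-sided, the smallest that 3 against 3 libraries allow). Knockdown replicate 3 stood apart from its 2 partners: the chi-square per degree of freedom between their estimated reads was 6.26 and 6.69, and 3.39 to 3.85 for the other pairs within groups. All 5 epithelial markers examined were present, with KRT19 at 825 ± 26.0 and CDH1 at 342 ± 1.88 in control cells (SD, n = 3). Of markers of other cell types, none of the 6 leukocyte or 6 hepatocyte genes was analysed here. COL1A1 alone of 5 fibroblast markers and PECAM1 alone of 4 endothelial markers were measured. PECAM1 fell from 54.2 ± 1.14 to 23.3 ± 0.695 (SD, n = 3 each; limma adjusted p = 1.59e-11); its part in the results that follow was not tested.

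In knockdown cells CFB was 2.40-fold higher, CD55 was 1.78-fold lower and CD46 was 1.14-fold higher, while C3, CD59, LCN2 and SAA1 differed from control cells by less than 5% and were not called. A gene was called at a limma adjusted p under 0.05 on log2(deposited value + 0.5), adjusted over all 12227 genes by the Benjamini-Hochberg method. Thus 2 of the 7 genes rose, 1 fell and 4 were not called, beside 60.9% of all listed genes called in either direction, 33.0% higher and 27.8% lower. The groups did not overlap for 4 of the 7, against 64.8% of all listed genes. The median absolute log2 fold change was 0.06 over the 7 and 0.21 over all listed genes. Because these are bulk samples, fewer cells that express a gene and less RNA per cell cannot be told apart.

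**Figure D1:**
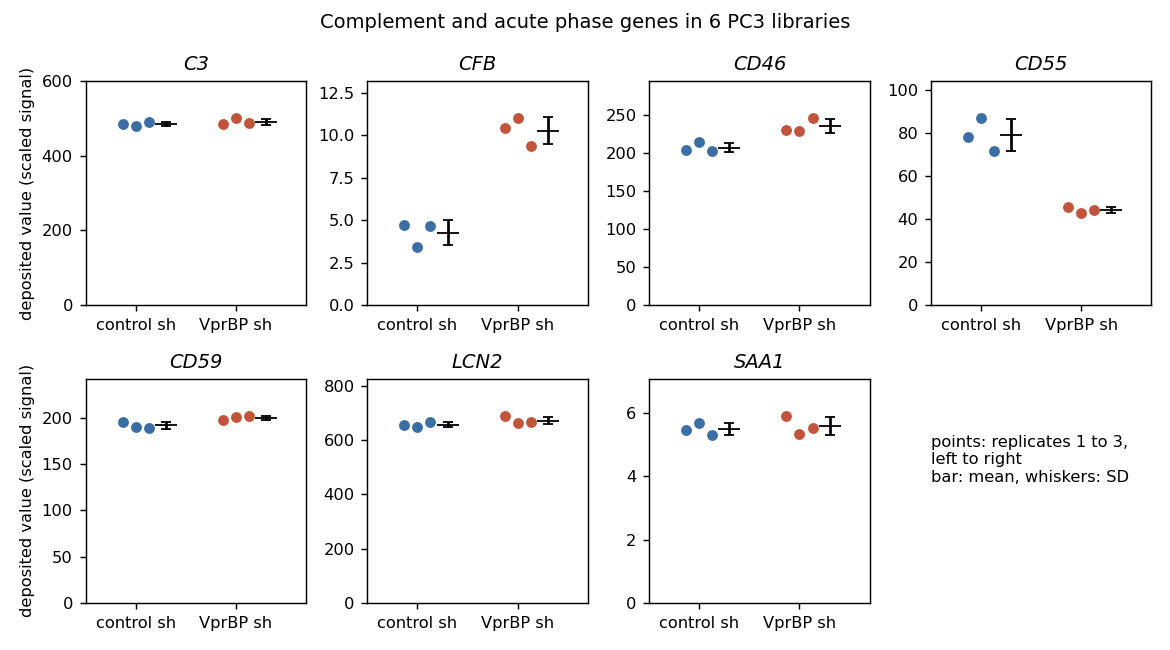
Deposited values of the 7 genes (vertical axes, scaled signal, each from 0) in 3 control and 3 knockdown libraries; points are libraries, bars means and whiskers SD. The groups separate widely for CFB and CD55, narrowly for CD46 and CD59, and overlap for C3, LCN2 and SAA1.

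C3 and factor B (CFB) form the core of the alternative pathway: factor B binds cleaved C3 and, once cut by factor D (CFD), becomes the protease of the C3 convertase. Levels of these transcripts were far apart in PC3 cells. C3 had values of 486, 480 and 491 in control libraries and 484, 500 and 489 in knockdown libraries. The groups overlapped, and the spread within each was narrow, with a coefficient of variation of 1.16% in control and 1.69% in knockdown cells. The log2 fold change of C3 was 0.02 (SE 0.03, limma adjusted p = 0.655). The 95% confidence interval of the C3 difference ran from -3.23% to 5.72% of the control level. C3 ranked above 98.0% of listed genes by mean value, and 11113 to 19027 estimated reads lay behind each value.

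CFB had values of 4.70, 3.45 and 4.67 in control libraries and 10.5, 11.0 and 9.40 in knockdown libraries. Every knockdown library was above every control library, although the control values were spread with a coefficient of variation of 16.7%. Group means were 4.28 ± 0.713 and 10.3 ± 0.811 (SD, n = 3 each), a log2 fold change of 1.18 (SE 0.13, 95% interval 0.91 to 1.46, limma adjusted p = 8.85e-07). Few reads lay behind these values, 80 to 153 in control and 214 to 411 in knockdown libraries. A change of this absolute size or more was uncommon in the data: 97.4% of listed genes had a smaller absolute log2 fold change. CFB overlaps C2 and a further protein-coding gene model on the same strand in GENCODE 29, neither of which was analysed here, so reads from the shared exons cannot be assigned with certainty.

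Per kilobase of annotated exon, the C3 transcript stood 62.0, 83.4 and 63.0 times above CFB in control libraries. In knockdown libraries the ratio was 27.8, 27.3 and 31.2. The 2 groups of ratios did not overlap, while the group means of C3 differed by 1.15%. The factor D transcript moved the other way from CFB. CFD values were 13.9, 12.95 and 13.2 in control libraries against 8.88, 8.66 and 6.94 in knockdown libraries, a fall by 0.69 on the log2 scale (limma adjusted p = 2.95e-05).

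The 250 bases upstream of the RefSeq start of CFB are shown because CFB was the gene of the set that rose most, with the corresponding windows of CD55, which fell, and of LCN2, which was abundant and not called. Capitals mark matches to 4 motifs searched on both strands: the STAT palindrome TTCNNNGAA, the interferon-stimulated response element core (GAAA, any 2 bases, GAAA), the C/EBP core TTGCNNAA and the kappaB consensus. All sequences are from RefSeq on GRCh38.p14, plus strand, 5′ to 3′.
CFB, chr6:31945845-31946094: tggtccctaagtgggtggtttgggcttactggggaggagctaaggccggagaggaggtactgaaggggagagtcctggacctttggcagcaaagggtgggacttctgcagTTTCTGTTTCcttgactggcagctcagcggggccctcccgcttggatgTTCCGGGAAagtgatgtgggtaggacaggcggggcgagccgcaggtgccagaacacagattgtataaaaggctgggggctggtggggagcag
CD55, chr1:207321428-207321677: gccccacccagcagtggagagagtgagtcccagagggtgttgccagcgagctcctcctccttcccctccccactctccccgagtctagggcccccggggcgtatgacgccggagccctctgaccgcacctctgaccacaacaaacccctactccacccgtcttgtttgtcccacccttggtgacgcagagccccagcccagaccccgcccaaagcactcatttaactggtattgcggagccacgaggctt
LCN2, chr9:128149203-128149452: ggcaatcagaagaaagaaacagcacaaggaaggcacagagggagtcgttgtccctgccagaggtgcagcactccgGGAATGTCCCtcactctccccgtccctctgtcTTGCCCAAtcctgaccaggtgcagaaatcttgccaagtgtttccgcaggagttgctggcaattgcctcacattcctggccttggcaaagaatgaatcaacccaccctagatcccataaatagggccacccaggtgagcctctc

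The CFB window held the response element core, read on the opposite strand, from 140 to 131 bases before the start and the STAT palindrome from 92 to 84 bases before it. Among 35116 promoter windows of the same length, 6.57% held the STAT palindrome, 3.02% the response element core and 0.310% held both. The LCN2 window held the kappaB consensus, on the opposite strand, from 175 to 166 bases and the C/EBP core from 143 to 136 bases before the start. These were found in 5.21% and 9.05% of all windows and together in 0.319%. No match in these 2 windows overlapped another. The CD55 window held none of the 4 motifs, like 78.3% of all windows. A match describes the letters only. The RefSeq starts used lie 445, 159 and 382 bases inside the deposited spans of CFB, CD55 and LCN2. Windows were matched for 5 of the 7 genes, not for C3 and SAA1. Neither of the 2 windows of CD46, which rose, held any of the 4 motifs. CD59, which was not called, had 4 windows, of which 2 overlapping ones held the STAT palindrome and 1 other held the C/EBP core.

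The membrane regulators protect host cells. CD55 (decay-accelerating factor) takes C3 convertases apart, CD46 (membrane cofactor protein) is the cofactor for cleavage of C3b and C4b by factor I, and CD59 blocks the membrane pore. Their transcripts did not move together. CD55 had values of 77.9, 86.6 and 71.7 in control libraries and 45.6, 42.6 and 44.2 in knockdown libraries. The lowest control library was well above the highest knockdown library, and the control libraries were the more spread, with a coefficient of variation of 9.50% against 3.40%. Over all listed genes the median coefficient of variation was 4.33% in control and 4.87% in knockdown cells. CD55 kept 56.0% of its control level (78.8 ± 7.48 against 44.1 ± 1.499, SD, n = 3 each). The log2 fold change of CD55 was -0.82 (SE 0.06, 95% interval -0.95 to -0.70, limma adjusted p = 6.93e-09), and 94.3% of listed genes had a smaller absolute change.

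CD46 had values of 205, 214 and 203 in control libraries and 231, 230 and 246 in knockdown libraries. The groups were separate but close. CD46 rose by 13.5%, from 208 ± 5.97 to 236 ± 9.11 (SD, n = 3 each; log2 fold change 0.18, SE 0.04, limma adjusted p = 5.53e-04). This is a common size of change here, since 44.6% of listed genes had a smaller one. Tested against a fold of 1.5, CD46 was not called (limma treat adjusted p = 1), whereas CFB and CD55 were (adjusted p = 0.00382 and 0.0124).

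CD59 had values of 196, 190 and 190 in control libraries and 198, 201 and 202 in knockdown libraries. Each knockdown library was above each control library by a narrow margin. The log2 fold change of 0.06 (SE 0.03) did not pass the test (limma adjusted p = 0.132), with an interval from -0.758% to 9.65% of the control level. CD59 overlaps a protein-coding gene model on the same strand, ENSG00000284969, which was not called, at 8.25 ± 2.80 in control and 7.74 ± 1.16 under knockdown (SD, n = 3 each; limma adjusted p = 0.827).

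Per kilobase of exon, the order was CD46, CD59, CD55 in every library. Summed over the 3 genes, the level was 55.7 ± 1.94 in control and 53.9 ± 1.21 in knockdown cells (SD, n = 3 each), with overlapping groups. CD55 made up 23.7%, 25.4% and 22.6% of that sum in control libraries and 14.5%, 13.6% and 13.5% in knockdown libraries. CD46 made up 42.3% to 43.4% in control and 49.7% to 51.2% in knockdown libraries. The level of CD46 relative to CD55 per kilobase went from 1.80 ± 0.123 to 3.62 ± 0.175 (SD, n = 3 each), with no overlap. These shares depend on the exon lengths of GENCODE 29, and the transcripts in use were not measured.

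**Figure D2:**
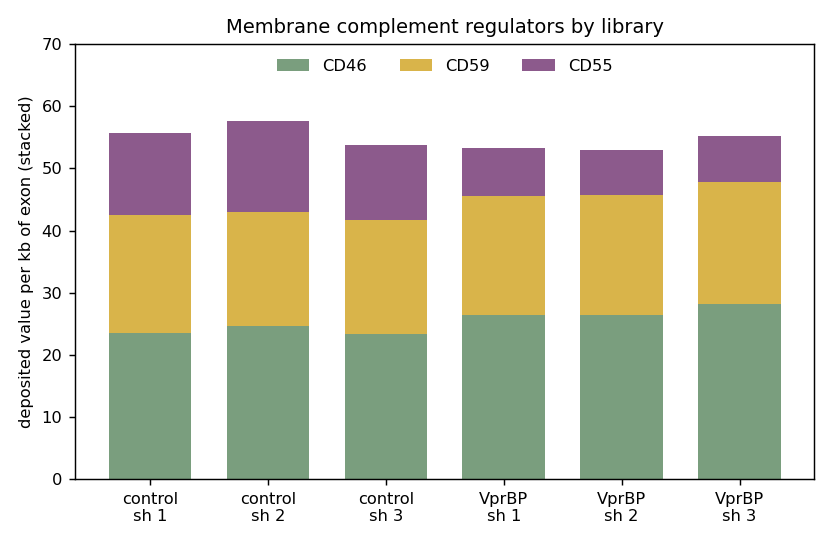
Deposited value per kilobase of exon, stacked for CD46, CD59 and CD55, in each of the 6 libraries. The summed height is 53.0 to 57.7 in all libraries, while the CD55 segment is smaller in the 3 knockdown libraries.

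LCN2 and SAA1 are acute phase genes. LCN2 encodes lipocalin 2, which withholds iron from bacteria by binding their siderophores, and SAA1 encodes serum amyloid A1, a lipoprotein-bound protein made in large amounts by the inflamed liver. LCN2 had values of 656, 650 and 668 in control libraries and 689, 663 and 666 in knockdown libraries. The groups overlapped. For LCN2 the log2 fold change stood at 0.03 (SE 0.03, limma adjusted p = 0.376), with an interval from -2.19% to 6.84% of the control level. LCN2 ranked above 98.9% of listed genes by mean value and was the most abundant of the 7 per kilobase of exon, at 412 in control and 421 in knockdown cells.

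SAA1 was low by mean value, above only 6.44% of listed genes, a rank that takes no account of its short exon length of 796 bases. Its values were 5.47, 5.70 and 5.32 in control libraries and 5.91, 5.34 and 5.53 in knockdown libraries. The groups overlapped, with 126 to 232 estimated reads behind each value. For SAA1 the log2 fold change stood at 0.02 (SE 0.12, limma adjusted p = 0.888), and the interval from -14.9% to 21.1% was wider than that of LCN2 or C3. SAA1 has a near-identical neighbour, SAA2, which was not analysed here, so its reads are uncertain. Per kilobase LCN2 stood 56.8 to 62.5 times above SAA1 in control libraries and 58.1 to 61.9 times above it in knockdown libraries, and these ranges overlapped.

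Ordered by value per kilobase of exon in control cells, the genes ran LCN2 (412), C3 (58.3), CD46 (23.8), CD59 (18.5), CD55 (13.3), SAA1 (6.91) and CFB (0.856). In knockdown cells they ran LCN2 (421), C3 (59.0), CD46 (27.1), CD59 (19.3), CD55 (7.47), SAA1 (7.03) and CFB (2.06). The order was the same in both groups. CD55 came closest to a change of place: in knockdown libraries its 7.21 to 7.72 overlapped the 6.71 to 7.42 of SAA1, whereas in control libraries its lowest value, 12.1, was above the highest of SAA1, 7.16.

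**Figure D3:**
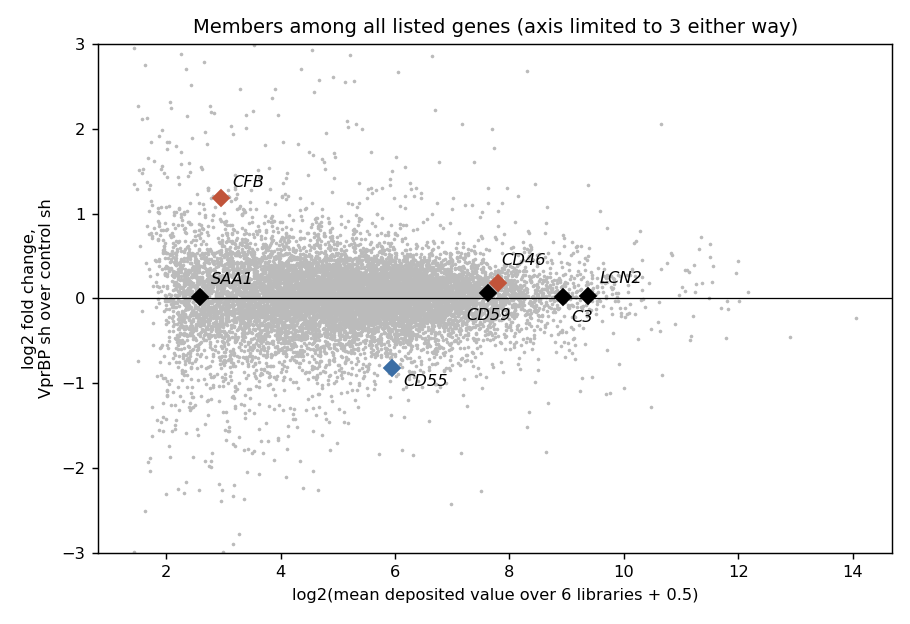
Log2 fold change (vertical axis) against log2 of the mean deposited value plus 0.5 (horizontal axis) for all listed genes in grey and the 7 genes as diamonds, red where called higher, blue where called lower and black where not called. C3 and LCN2 lie at the abundant end close to 0, CFB lies high and CD55 low.

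The rest of the complement system was thinly represented. Of 63 complement genes in the fixed lists, 11 were listed, of which 3 rose, 4 fell and 4 were not called, beside 33.0% higher and 27.8% lower over all listed genes. The median log2 fold change of the 11 was 0.02, as over all listed genes. Outside the 5 complement genes described above, 1 rose and 3 fell among 6 listed. CLU, which encodes clusterin, a secreted chaperone that also inhibits the membrane pore, fell from 8.62 ± 0.594 to 3.46 ± 0.578 (SD, n = 3 each; limma adjusted p = 1.01e-06). ITGB2, the beta subunit shared by complement receptors 3 and 4, fell by 0.30 on the log2 scale (limma adjusted p = 2.99e-05). Only 3 of the 11 complement receptor genes were listed, and the alpha subunits ITGAM and ITGAX were not among them. CALR, which encodes calreticulin, a chaperone that also binds C1q, rose 1.21-fold, from 885 ± 10.9 to 1067 ± 10.8 (SD, n = 3 each; limma adjusted p = 5.17e-07). C1RL, a relative of C1R, was the only gene listed of 9 in the classical pathway and was not called, at 6.29 ± 0.775 against 5.51 ± 0.322 (SD, n = 3 each; limma adjusted p = 0.255). None of the 9 lectin pathway genes or 7 terminal pathway genes was analysed here.

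Of 26 positive acute phase genes, 7 were listed, and 4 rose, 1 fell and 2, LCN2 and SAA1, were not called (median log2 fold change 0.11). The shares over all listed genes were 33.0% higher and 27.8% lower. IL1RN, which encodes the interleukin 1 receptor antagonist, had values of 2.43, 4.88 and 4.21 in control libraries and 9.33, 9.74 and 8.56 in knockdown libraries, and so was 2.40-fold higher. It reached the read limit of listed genes only in knockdown libraries, so its listing depended on the higher group. SERPINA1, the gene of alpha-1 antitrypsin, rose 1.26-fold, and FTH1, the ferritin heavy chain gene, rose 1.23-fold. PTX3, which encodes a pentraxin that binds C1q and factor H, had values of 60.4, 55.5 and 59.6 in control libraries and 39.5, 37.5 and 37.7 in knockdown libraries. The PTX3 groups did not overlap (log2 fold change -0.61, SE 0.05, limma adjusted p = 5.26e-08). None of the 7 negative acute phase genes was analysed here.

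The known inducers of acute phase genes and their transcription factors moved in both directions. Of 26 such genes, 23 were listed, and 11 rose, 7 fell and 5 were not called, the median log2 fold change being 0.13. These counts include IL6, IL1R1, CEBPA and CEBPD, which reached the read limit only in the group where they were higher. Among all listed genes 33.0% were called higher and 27.8% lower, so calls in both directions are usual here. IL6 went from 1.40, 1.86 and 1.42 to 54.7, 56.4 and 56.7. Its listing likewise depended on the knockdown libraries, where alone it reached the read limit of listed genes. The 2 receptor subunits for IL-6 also rose, IL6R 1.94-fold and IL6ST 1.76-fold. IRF1, a transcription factor of interferon signalling, rose 2.31-fold, and IL1B rose from 921 ± 14.6 to 1468 ± 64.5 (SD, n = 3 each).

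On the lower side of the same list were genes of C/EBP factors, which bind the promoters of many acute phase genes. Their changes were of unlike size. CEBPB, by far the most abundant of them by deposited value, went only from 233 ± 7.84 to 207 ± 20.2 (SD, n = 3 each, limma adjusted p = 0.0107). CEBPA had values of 5.75, 5.74 and 6.63 in control libraries and 2.38, 1.76 and 1.67 in knockdown libraries. CEBPD had values of 6.98, 7.21 and 6.55 in control libraries and 3.08, 2.85 and 1.89 in knockdown libraries. Neither gene had overlapping groups (limma adjusted p = 1.22e-06 and 4.31e-06). CEBPA and CEBPD reached the read limit of listed genes only in control libraries, so their listing depended on the higher group. LIFR, a receptor subunit for LIF, was 1.71-fold lower, whereas LIF rose 1.36-fold and OSMR, another receptor gene of the list, rose 1.42-fold. NFKBIZ, which encodes a nuclear cofactor of NF-kB known to act on LCN2, fell from 77.5 ± 1.93 to 61.4 ± 0.932 (SD, n = 3 each, limma adjusted p = 6.48e-06). The other NF-kB genes of the list went both ways. RELB rose 1.93-fold and NFKB1 1.21-fold, NFKBIA fell 1.44-fold, and RELA and NFKB2 were not called. A link of these changes to LCN2 was not tested. SOCS3, the feedback inhibitor of IL-6 signalling, was 1.11-fold lower (limma adjusted p = 0.0345), a call lost without control replicate 1 (0.151), control replicate 3 (0.0528) or knockdown replicate 3 (0.115). CEBPB, LIF, OSMR, NFKBIZ and the other NF-kB genes, SOCS3, IL6ST, IL1B, IL1R1 and, in what follows, TLR2 were named after their values were seen.

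Of 7 genes for receptors of lipocalin 2 and serum amyloid A and for the lipocalin 2 partner MMP9, 3 were listed. MMP9, a matrix protease found in a complex with lipocalin 2, had values of 0.215, 0.173 and 0.0834 in control libraries and 5.34, 4.26 and 5.36 in knockdown libraries. The read limit of listed genes was reached by MMP9 only under knockdown, so its listing depended on the higher group. SCARB1, a scavenger receptor that binds serum amyloid A, rose 1.11-fold, and TLR2 was not called (limma adjusted p = 0.536).

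**Figure D4:**
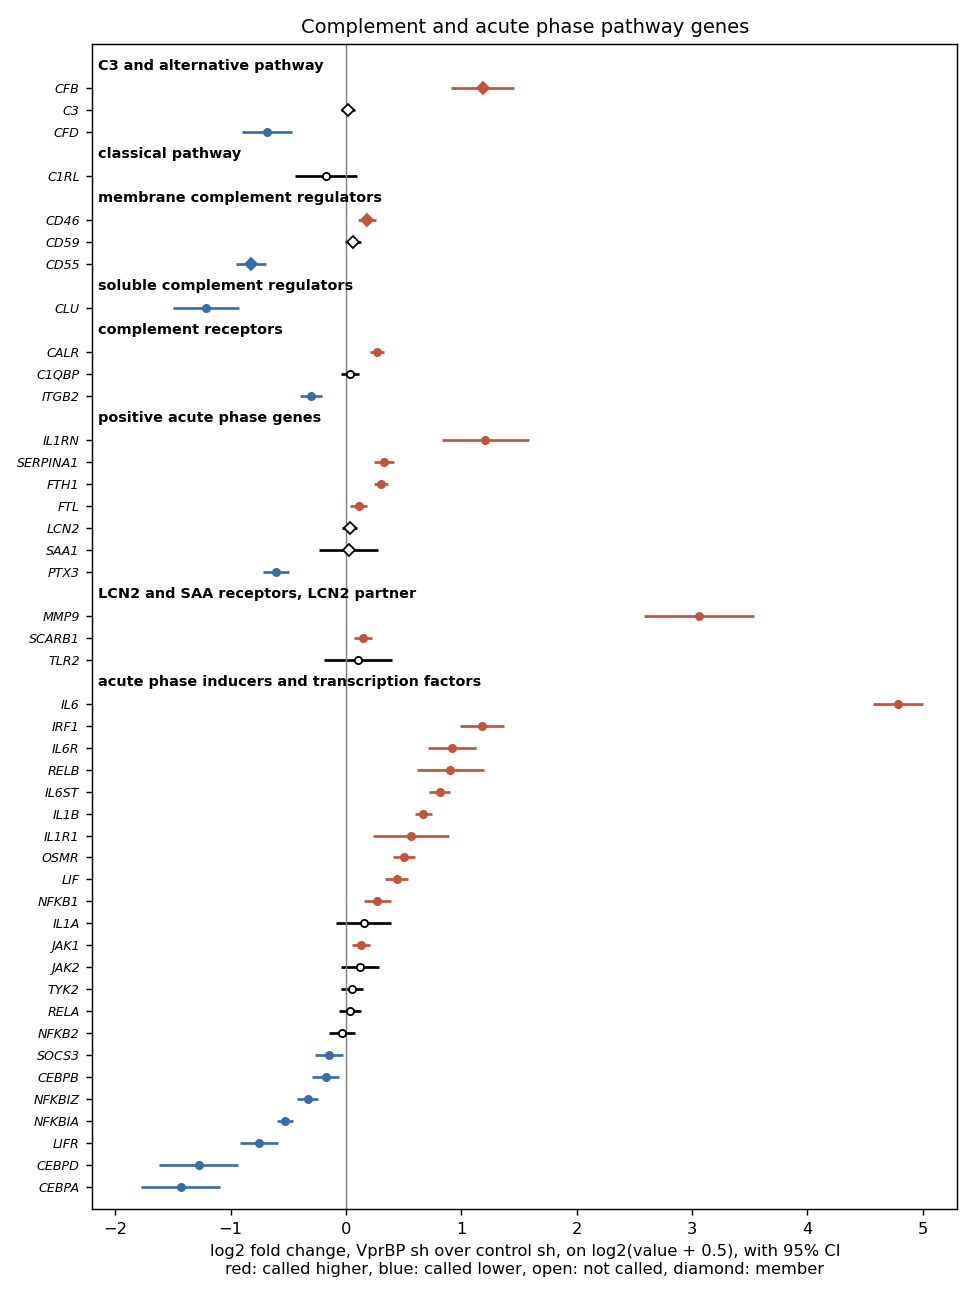
Log2 fold change with 95% confidence interval (horizontal axis) for the 44 listed genes of the fixed complement and acute phase lists, grouped by list; diamonds are the genes of the set, red is called higher, blue called lower and open not called. The inducer list spans from CEBPA at -1.43 to IL6 at 4.79, while C3, LCN2 and SAA1 lie at 0.02 to 0.03.

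For each called gene of the set, the gene with the nearest profile over the 6 libraries was sought among the 11602 other genes whose mean value was 5 or more, as the root mean square difference of log2 values centred on their mean. The nearest to CD55 was ASNS, asparagine synthetase, at 0.05 log2 units, with values of 145, 159 and 139 in control libraries and 80.7, 81.1 and 85.1 in knockdown libraries. The nearest to CFB was SLC2A1, a glucose transporter gene, at 0.10 log2 units, and the nearest to CD46 was ERAP2, an antigen-trimming peptidase gene, at 0.01 log2 units. These profiles are dominated by the difference between the 2 groups and are a description of 6 libraries.

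The calls of CFB and CD55 held under all 15 other settings, and those of C3, CD59, LCN2 and SAA1 remained absent under all 15. Over these settings the log2 fold change of CFB ran from 1.05 to 1.26, that of CD55 from -0.89 to -0.75 and that of CD46 from 0.15 to 0.21. The values of C3 ran from -0.01 to 0.03 and those of SAA1 from -0.01 to 0.05, so their sign depended on the setting.

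**Figure D5:**
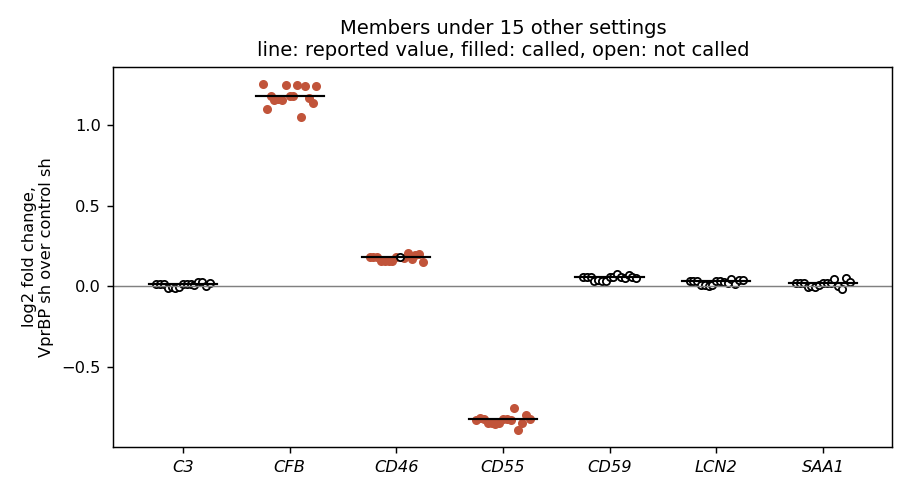
Log2 fold change (vertical axis) of each of the 7 genes under 15 other settings; filled points passed the test, open points did not, and the line is the reported value. CD46 has 1 open point, the test against a fold of 1.5.

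On hg38, C3 (ENSG00000125730.18) spans 6677704 to 6730562 of chromosome 19 on the minus strand and overlaps GPR108 on the same strand, which was not called (limma adjusted p = 0.995). CFB (ENSG00000243649.10) spans 31945650 to 31952086 of chromosome 6. CD55 (ENSG00000196352.18) spans 207321519 to 207386804 and CD46 (ENSG00000117335.21) spans 207752037 to 207795513 of chromosome 1, both on the plus strand. CD59 (ENSG00000085063.18) spans 33703010 to 33736479 of chromosome 11 on the minus strand, and SAA1 (ENSG00000173432.13) spans 18266260 to 18269977 of the same chromosome on the plus strand. LCN2 (ENSG00000148346.12) spans 128149071 to 128153453 of chromosome 9.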

How the data were processed

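PC3 cells with control or VprBP short hairpin RNA were sequenced in 3 libraries each, with libraries built by a SMARTer mRNA-seq kit from 1.0 ug of total RNA per the labels' protocols. The deposited values are called raw counts by the labels but are a scaled signal: the authors' values are not whole numbers, their 75th percentile is 79.0 in each library, and low values are spaced by 1 step per library (0.0254 to 0.0439, the value of 1 read). Only 55.4% to 64.8% of values were whole multiples of that step, within 0.02 reads, so no count model was used. Per the submitters' processing notes, Partek and hg38 were used; the sources used here do not name the aligner, annotation release, scaling or strand setting.

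From these values, limma 3.58.1 in R 4.3.3 was fitted with a mean-dependent prior (trend) to log2(value + 0.5) of all 12227 genes, two-sided. The fit was also tried on simulated data with far fewer changed genes, which cannot show how it performs on these data. Folds are ratios of group means; percent intervals and log2 fold changes come from log2(value + 0.5), a scale that shrinks the changes of low genes. Estimated reads are values divided by the step. Exon lengths are unions of GENCODE 29 exons. Deposited ends were reduced by 1. Named genes were the set, DCAF1, up to 3 called genes per list and direction with the largest change and a mean value of 1 or more, and the nearest profile of each called gene, unless stated; a gene of the inducer list is not reported here. The genes and lists were chosen with earlier results of these data known.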

Additional observations from a re-analysis of the deposited data

How the results depend on the processing

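The 15 other settings were pseudocounts of 0.1 and 1, a mean value of at least 5, median-ratio, library-total and TMM scaling, limma-voom on estimated reads, a replicate block, a test against a fold of 1.5 and each library left out in turn. Under the test against a fold of 1.5, 296 genes were higher and 355 lower (5.32% of all), 1 gene of the set was called higher in place of 2, and 7 and 4 genes of the fixed lists were called higher and lower in place of 20 and 12. Of the named genes, CALR, CEBPB, CFD, FTH1, FTL, IL1B, ITGB2, LIF, LIFR, NFKB1, NFKBIA, NFKBIZ, OSMR, PTX3, RELB, SCARB1, SERPINA1 and SOCS3 were among those that lost their call there. No other setting changed a call of the genes of the set, and no called direction reversed. DCAF1 stayed called throughout, with log2 fold changes of -1.01 to -0.95. With 1 library left out, 2 genes of the set were higher and 1 lower each time, and among the fixed lists 19 to 20 were higher and 10 to 12 lower. CEBPB was not called without control replicate 1 (limma adjusted p = 0.0502), nor FTL without knockdown replicate 1 (0.0625). FTL is named because of this loss. Same-numbered libraries deviated from their group means with correlations of 0.018, -0.156 and -0.168, and unlike-numbered ones with -0.081 to 0.185. Deviations from means of 3 libraries constrain each other, so these values cannot decide whether the replicate numbers pair the samples. With the replicate block, 3826 genes were higher and 3216 lower, against 4037 and 3404 without it, and DCAF1 had -0.97. TMM scaling called 3695 higher and 3734 lower. Within the set, depth limits SAA1 and CFB, which rest on the fewest reads. Outside it, MMP9 and IL6 rest on fewer still in control libraries.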
